A study of Mus musculus with 4 samples.

Results

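The genes followed here encode the secreted products of goblet cells and the machinery that makes them: Muc2, Tff3, Fcgbp, Clca1, Zg16, Agr2, Spdef, Retnlb, Reg4 and Spink4. They were chosen by symbol, 10 genes of the 52459 listed in the count table, and all 10 were present in it. RNA was sequenced from intestinal stem cells (ISCs) sorted from the small intestine of wild-type female C57/Bl6 mice that received no treatment, at 2 months (ISC_2mth, young) and at 22 months (ISC_22mth, old). Each age had 2 libraries, named replicate 1 and replicate 2, and each library was a pool of 5 animals, so that the values are averages over pooled mice and not values of single animals. The cells were sorted with the SM6 surface panel, which takes CD31-, CD45-, CD24med, CD166+, CD44high, GRP78low, EPHB2high and EPCAM+ cells. None of the 10 genes encodes a protein of that panel.

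Goblet cells arise from intestinal stem cells through secretory progenitors, in which low Notch signalling permits the factor Atoh1 to act and the ETS factor Spdef then drives terminal differentiation. The mature cell packs the gel-forming mucin Muc2 into granules after folding in the endoplasmic reticulum and dense O-glycosylation in the Golgi. Partner proteins released with it (Fcgbp, Clca1, Zg16, Tff3) build, process and repair the mucus layer. In a pool of sorted cells, more goblet cells or secretory progenitors and more mucus RNA per cell cannot be told apart.

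Promoters are shown for the 3 members with the highest counts among the 5 that had a RefSeq promoter entry (GRCm38.p6), as these are the upstream sequences of the transcripts that dominate the summed mucus signal. Each is the 250 bases before the RefSeq start, 5' to 3' on the plus strand, and capitals mark letters that match a motif searched below on either strand.
Muc2, chr7:141690090-141690339: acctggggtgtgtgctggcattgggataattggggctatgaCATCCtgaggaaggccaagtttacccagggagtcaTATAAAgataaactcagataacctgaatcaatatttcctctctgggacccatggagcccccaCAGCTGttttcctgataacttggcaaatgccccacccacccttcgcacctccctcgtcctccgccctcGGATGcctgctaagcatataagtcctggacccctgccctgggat
Fcgbp, chr7:28070986-28071235: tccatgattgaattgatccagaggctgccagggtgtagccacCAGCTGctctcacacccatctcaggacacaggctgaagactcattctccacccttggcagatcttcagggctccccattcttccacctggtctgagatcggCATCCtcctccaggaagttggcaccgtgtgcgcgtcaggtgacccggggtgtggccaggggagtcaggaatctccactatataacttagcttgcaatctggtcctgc
Agr2, chr12:35992675-35992924: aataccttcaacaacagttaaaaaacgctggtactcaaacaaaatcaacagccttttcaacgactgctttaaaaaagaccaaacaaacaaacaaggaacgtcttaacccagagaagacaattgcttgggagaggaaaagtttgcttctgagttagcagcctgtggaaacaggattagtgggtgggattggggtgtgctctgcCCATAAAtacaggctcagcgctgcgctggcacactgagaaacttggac
Both strands were searched for 5 motifs, and the share of 32851 promoter windows of the same length that hold each is given with it. TATAAA, the core of the TATA box, occurred in 12.4% of the windows. The E-box CAGCTG, of the kind bound by Atoh1-type factors, occurred in 13.0%, and the related CAGATG in 14.4%. GGATG, an ETS core of the SPDEF type, occurred in 37.3%, and TTTATNG, of the CDX2 type, in 9.81%. The Muc2 promoter held TATAAA once, the CAGCTG E-box once and 2 copies of GGATG. That of Fcgbp held the CAGCTG E-box and GGATG, while Agr2 held TTTATNG on the minus strand, Spdef held GGATG, and Reg4 held none of the 5. The last bases of the Agr2 window lie inside the gene as GENCODE places its start. A letter match is a description of these windows and not a binding site. Tff3, Clca1, Zg16, Retnlb and Spink4 were not searched. All 10 genes are protein-coding in the annotation used (GENCODE vM21, GRCm38), and no exon of theirs overlapped an exon of another gene. Muc2 lies on chromosome 7 at 141690340-141754693 and has 47 exonic blocks. Of the 50-base stretches of Fcgbp transcript, 6.42% also occurred in another gene, and none did for the other members, so that part of the Fcgbp count is uncertain.

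The 4 libraries held between 11662654 and 15975698 counts. Mitochondrially encoded genes took 62.6% and 65.7% of the counts in the young pools and 73.8% and 72.9% in the old pools, which left 3852178 to 4593004 counts outside them. A count of 0 allowed up to 0.199 to 0.245 CPM (counts scaled to a fixed library size), taking 3 counts as the limit, for counting error only. Levels below are CPM normalized by the trimmed mean of M values (TMM), in which the library size is scaled so that most genes do not differ. Between ages, 13692 genes passed the filter and were tested with edgeR's quasi-likelihood test. At a Benjamini-Hochberg false discovery rate (FDR) under 0.05, 309 were called (2.26%), of which 223 (1.63% of those tested) were higher at 22 months. An unadjusted p under 0.05 was reached by 16.9% of the tested genes, and in 47.6% the pools of the 2 ages did not overlap. With 2 pools per age an exact permutation test of a single value cannot go below p = 0.333. The labels do not tie the pools to litters or days, so p-values measure the spread between these pools.

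All 10 mucus genes were tested and none was called in either direction. None reached an unadjusted p under 0.05 in the edgeR fit, and FDR values ran from 0.484 to 0.991. In all 10 genes the range of the young pools overlapped that of the old pools. The likelihood ratio test of edgeR, limma and DESeq2 also called 0 of the 10. Over the 10 genes the log2 fold change (22 over 2 months) had a median of 0.076 beside -0.0049 for all genes tested, with 8 members above 0 and 2 below. Scaling by total counts turned 7 of those signs and put the members' median at -0.40, where the median of all genes stood at -0.49. Without ISC_2mth replicate 1 or without ISC_22mth replicate 1 the TMM-scaled median was -0.11 and -0.16, and without the other pool of the same age it was 0.28 and 0.14, so its sign rested on single pools. The plot of log2 fold changes gives each member with its interval.

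**Figure D1:**
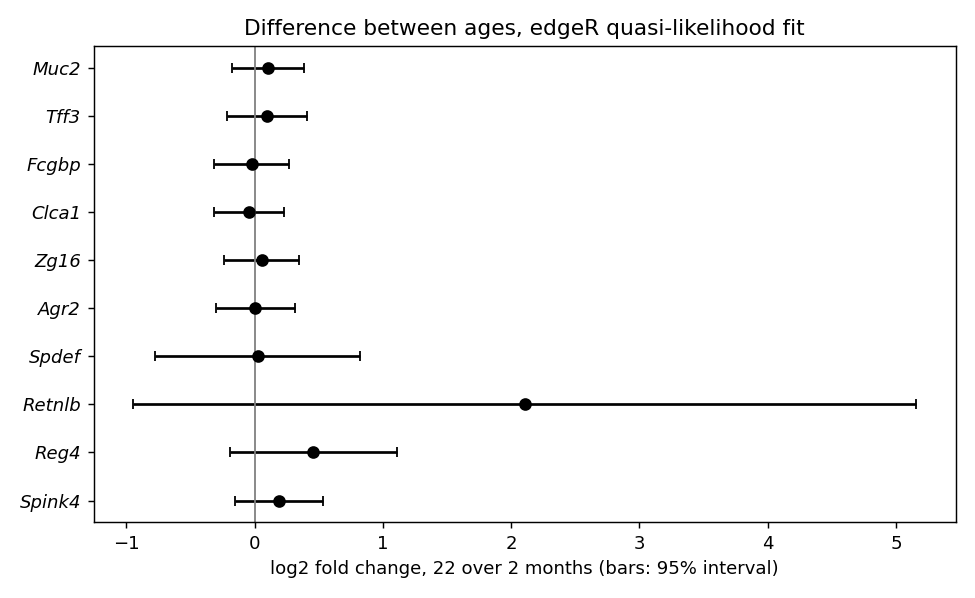
Log2 fold change (22 over 2 months, x axis) of each of the 10 mucus genes (y axis), with the 95% interval of the edgeR quasi-likelihood fit on 2 pools per age. Each interval includes 0, from the narrow ones of Clca1 and Muc2 to that of Retnlb, which reaches from -0.95 to 5.16.

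Muc2, the gel-forming mucin that is the scaffold of intestinal mucus, was the most counted member. Its normalized CPM was 1013 and 1273 in the young pools and 1438 and 1022 in the old pools. The lowest and the highest value of Muc2 thus lay on either side of the age split, with the young pool 1 and the old pool 2 low and the other pair high. The log2 fold change was 0.11 (SE 0.14, FDR 0.743 by edgeR, n = 2 pools per age), and its interval in linear fold ran from 0.885 to 1.31. By mean CPM Muc2 stood at rank 7 of the 52422 listed genes outside the mitochondrial set. These cells were sorted as stem cells, and Olfm4, a stem cell marker, held rank 6 in the same order. That order does not allow for transcript length. Per kilobase of exon the mean over the pools was 416 CPM for Olfm4 (rank 11 of the tested genes outside the mitochondrial set) and 166 CPM for Muc2 (rank 31).

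Among the proteins that act on the mucin outside the cell, Fcgbp, a large protein of von Willebrand D domains that is stored with Muc2, had a CPM of 312 and 441 in the young pools and 406 and 335 in the old pools. Its young values enclosed both old values. The log2 fold change was -0.023 (SE 0.14, FDR 0.955), with a fold between 0.803 and 1.21. Clca1, a secreted metalloprotease that cleaves Muc2, gave 147 and 189 CPM at 2 months and 174 and 152 CPM at 22 months. The old pools again lay inside the range of the young ones, with a log2 fold change of -0.042 (SE 0.13, FDR 0.911) and a fold between 0.803 and 1.17. Zg16, a lectin of the granule that binds Gram-positive bacteria, was counted at 75.8 and 102 CPM at 2 months and 97.5 and 87.3 CPM at 22 months. Its log2 fold change was 0.055 (SE 0.14, FDR 0.886), and the fold interval was 0.848 to 1.27. In these 3 genes the young pools set both extremes.

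Tff3, the trefoil peptide that goblet cells release for epithelial repair, had a CPM of 136 and 201 in the young pools and 166 and 195 in the old pools. The young pools again enclosed the old ones, but the order of the old pools was opposite to that of Muc2. The log2 fold change of Tff3 was 0.098 (SE 0.15, FDR 0.797), and its fold lay between 0.861 and 1.33. Spink4, a Kazal-type protease inhibitor of goblet cells, gave 98.6 and 122 CPM in the young pools and 153 and 98.6 CPM in the old pools. The second old pool was at the level of the first young pool, and the other old pool was the highest of the 4. Its log2 fold change was 0.19 (SE 0.16, FDR 0.594), with a fold from 0.900 to 1.45.

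Agr2, the protein disulfide isomerase that Muc2 needs for folding in the endoplasmic reticulum, had a CPM of 161 and 230 at 2 months and 218 and 175 at 22 months. The means of the ages were nearly equal, 196 ± 48.8 and 197 ± 29.9 CPM (SD, n = 2 pools), and the fold lay between 0.810 and 1.25. Spdef, the transcription factor of goblet maturation, was low, with 35 and 43 counts in the young pools and 34 and 34 counts in the old pools, or 2.41, 2.85, 2.57 and 2.78 CPM. The log2 fold change of Spdef was 0.024 (SE 0.38, FDR 0.985), and at such counts the interval was wide, with a fold from 0.584 to 1.77.

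Reg4, a secreted C-type lectin of goblet and enteroendocrine cells, and Retnlb, the resistin-like protein that goblet cells release on type 2 immune stimulation, were the members whose pools differed most. Reg4 had 15.2 and 17.5 CPM in the young pools and 34.1 and 10.6 CPM in the old pools, so that both the highest and the lowest value were old. The log2 fold change of Reg4 was 0.46 (SE 0.31, FDR 0.484), with a fold from 0.874 to 2.16. Retnlb had 4 and 0 counts in the young pools and 16 and 0 counts in the old pools, and it passed the filter only through ISC_22mth replicate 1. One pool of each age thus gave no read. The fitted log2 fold change of Retnlb was 2.11 (SE 1.46, FDR 0.494), a value that depends on how counts of 0 are treated. Leaving out ISC_22mth replicate 2, edgeR called 2 members, Reg4 (log2 fold change 1.06) and Spink4 (0.47), with the lone old pool assumed to vary like the young ones. Without ISC_22mth replicate 1 the log2 fold change of Reg4 was -0.62 and that of Spink4 was -0.16.

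**Figure D2:**
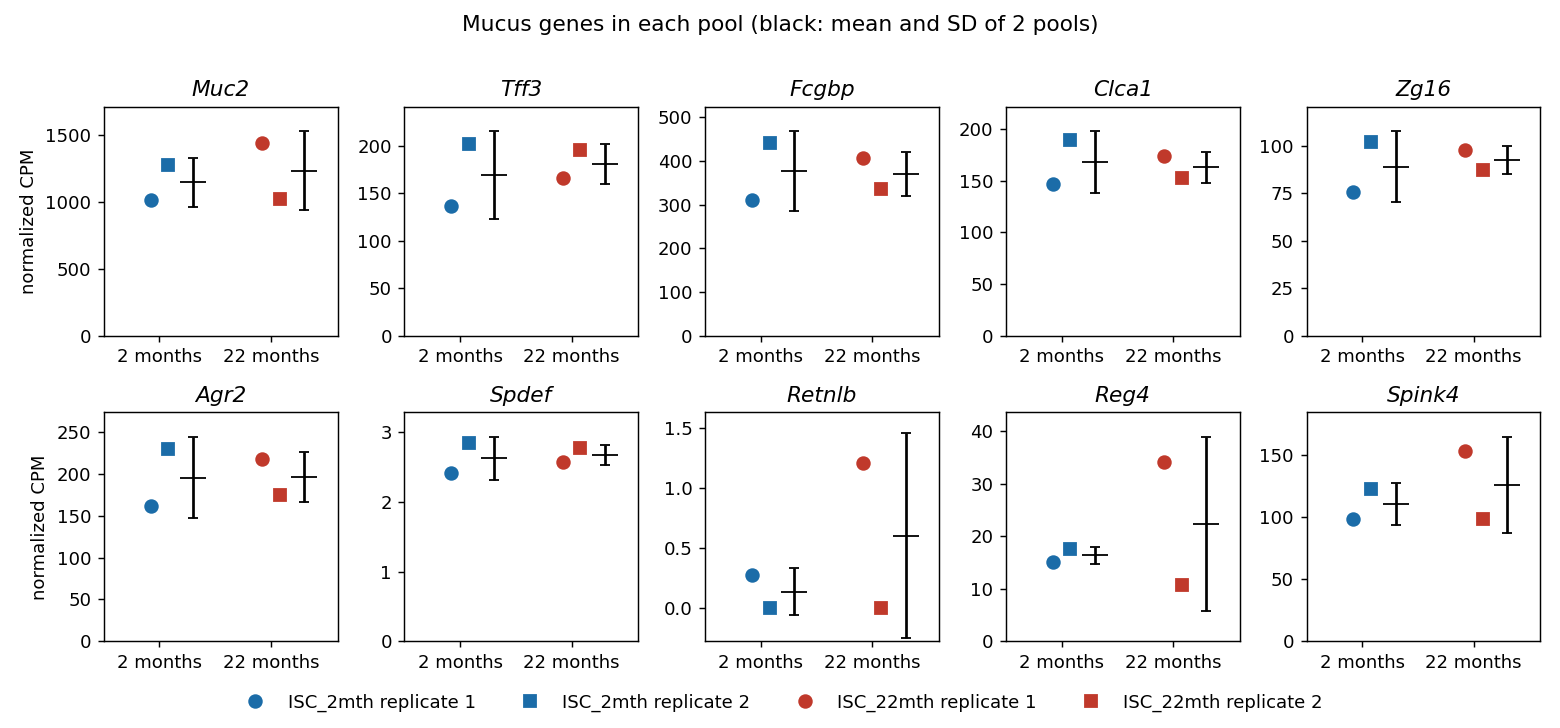
Normalized CPM (y axis, one scale per gene) of the 10 mucus genes in each of the 4 pools, by age (x axis), with the mean and SD of 2 pools in black. In every panel the young and the old points overlap, and ISC_22mth replicate 1 is the highest pool for Muc2, Reg4, Spink4 and Retnlb.

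Levels of different genes were compared per kilobase of exon, since long transcripts give more reads. On this scale Tff3 was the highest member at 354 ± 60.9 normalized CPM per kb (SD, n = 4 pools), followed by Spink4 at 248 ± 54.5. Muc2 at 166 ± 29.0 and Agr2 at 152 ± 25.6 CPM per kb came next, with ranges that overlapped. Muc2 was above Agr2 in each pool, though nearly equal to it in ISC_2mth replicate 2 (179 and 178). The lowest Tff3 pool, 276 CPM per kb, lay below the highest Spink4 pool, 322, and the lowest Spink4 pools, at 207, lay above all Muc2 pools, the highest of which was 202. Zg16 followed at 72.1 ± 9.29 CPM per kb, then Clca1 at 43.8 ± 5.17 and Fcgbp at 35.6 ± 5.76, whose ranges overlapped. Within every pool, Tff3 was above Spink4 and Clca1 above Fcgbp. Reg4 at 19.0 ± 10.0 CPM per kb was variable, and its highest pool reached the Fcgbp range. Spdef at 1.15 ± 0.0863 and Retnlb at 0.533 ± 0.824 CPM per kb were far below the other members. Among 13217 tested genes outside the mitochondrial set, Tff3 had rank 13, Spink4 rank 20, Muc2 rank 31 and Agr2 rank 36 in level per kb. The annotation lists 7127 exonic bases for Muc2 and 493 for Tff3, and the level per kb depends on these lengths.

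**Figure D3:**
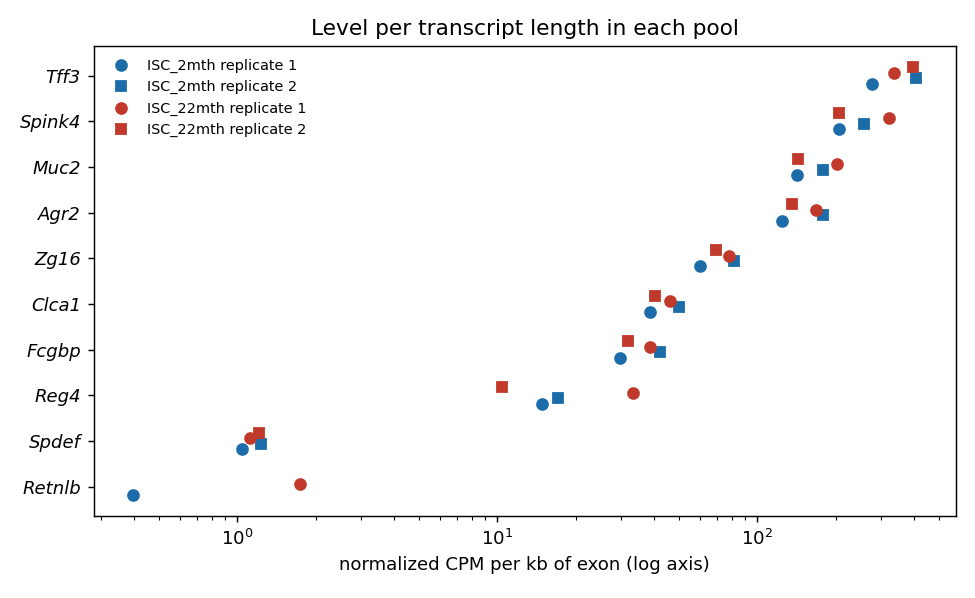
Normalized CPM per kb of exon (x axis, log scale) of the 10 mucus genes (y axis, ordered by mean level) in the 4 pools. Tff3 is highest and Spdef and Retnlb are lowest, and pools of Retnlb with 0 counts are not drawn.

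In sum, the 10 genes took 28457 and 38986 counts in the young pools and 35612 and 25422 counts in the old pools. These are 0.652%, 0.849%, 0.851% and 0.660% of the counts outside the mitochondrial genes, so that each age had a low and a high pool at nearly the same shares. The summed normalized CPM was 2270 ± 438 at 2 months and 2385 ± 433 at 22 months (SD, n = 2 pools), a log2 ratio of 0.071 that is smaller than the spread between pools. Without Muc2 the log2 ratio of the sum was 0.035. Muc2 made up 49.1% to 53.5% of the member counts in each pool and Fcgbp 15.1% to 17.1%. Agr2 held 8.09% to 8.93% and Zg16 3.62% to 4.20%. Tff3 held 6.17% to 9.40% and Reg4 0.511% to 1.27%.

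At each age most members were higher in the same pool. At 2 months the second pool exceeded the first in 9 of the 10 genes, beside 49.7% of all genes tested, with a median fold over the members of 1.27. The ratios ran from 1.16 for Reg4 (95% counting interval 0.968 to 1.38) to 1.48 for Tff3 (1.40 to 1.57), and that of Muc2 was 1.26 (1.23 to 1.28). The intervals of Reg4 and of Spdef, at 1.18 (0.755 to 1.84), include 1, so that neither could be ordered beyond counting error. Retnlb, with 4 counts against 0, was the exception. At 22 months the first pool exceeded the second in 8 of the 10, beside 49.5% of all genes, with a median fold of 1.23. Here the ratio was 3.21 for Reg4 (2.64 to 3.90), 1.56 for Spink4 (1.45 to 1.67), 1.41 for Muc2 (1.38 to 1.44) and 1.24 for Agr2 (1.17 to 1.31). Tff3 was lower in the first old pool, at a ratio of 0.850 (0.802 to 0.900), and Spdef could again not be ordered, at 0.924 (0.574 to 1.49). Members counted in one library share that library, and the order of the pools is a description without a test.

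**Figure D4:**
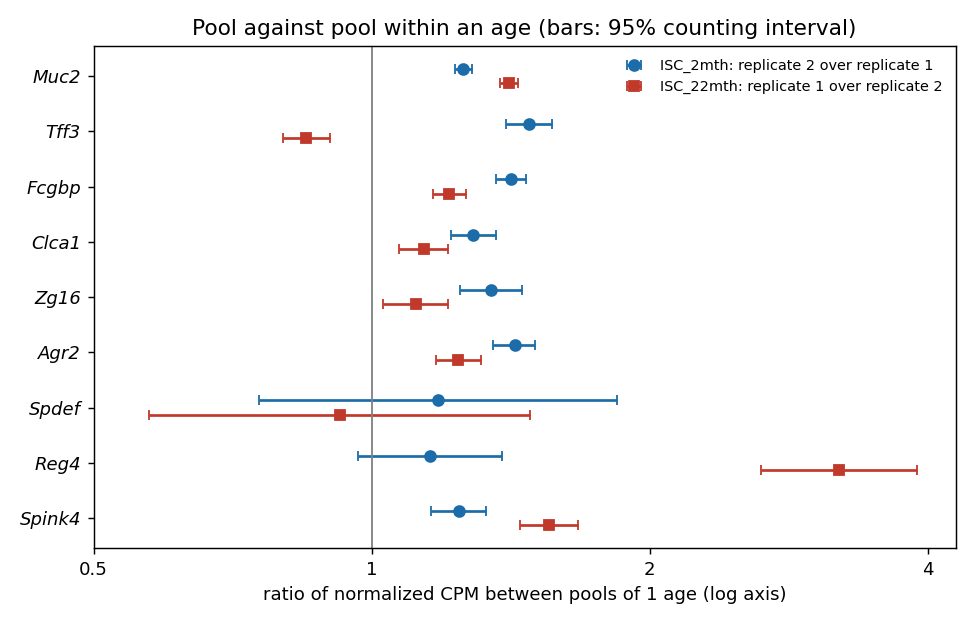
Ratio of normalized CPM between the 2 pools of one age (x axis, log scale) for 9 mucus genes (y axis), as replicate 2 over replicate 1 at 2 months and replicate 1 over replicate 2 at 22 months, with 95% counting intervals. All 9 young ratios are above 1, and of the old ratios those of Tff3 and Spdef are below 1. Retnlb has pools with 0 counts and no ratio.

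Factors of the secretory fate were all measured, 14 of 14, and none was called between ages, with a median log2 fold change of -0.0032. Atoh1, the factor that commits progenitors to the secretory lineage, had 6.96 and 10.5 CPM at 2 months and 15.0 and 12.3 CPM at 22 months. The old pools of Atoh1 were above the young ones, but its log2 fold change of 0.64 (SE 0.22) had an FDR of 0.148. Notch1, the receptor that opposes this fate, had 45.1 and 46.1 CPM in the young and 38.8 and 33.8 CPM in the old pools (log2 fold change -0.33, FDR 0.228). Elf3, an epithelial ETS factor, overlapped between ages (log2 fold change -0.41, FDR 0.262). None of the 3 met the threshold with TMM scaling and all pools. With total counts, which moved the median of all genes by -0.49, Notch1 (-0.82, FDR 3.8e-04) and Elf3 (-0.89, FDR 7.3e-04) were called. Without ISC_22mth replicate 2, Atoh1 (0.78, FDR 0.0325) and Elf3 (-0.77, FDR 0.0018) were called, and without ISC_22mth replicate 1 they were at 0.49 and -0.12 and not called. Of the list, 50.0% did not overlap between ages beside the 47.6% of all genes.

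Enzymes of mucin O-glycosylation gave the only call of the TMM-scaled edgeR test among the genes of mucin synthesis listed. Of 16 tested genes of 21, 1 was called higher, beside 1.63% of all genes, and none was called lower. The median log2 fold change was 0.18, with 9 genes above 0 and 7 below. With single pools left out this median ran from -0.066 to 0.39, so its sign rested on single pools. With total counts it was -0.32. An unadjusted p under 0.05 was reached by 7 of the 16, and in 9 of the 16 (56.2%) the ages did not overlap, beside 16.9% and 47.6% of all genes. Those 7 went both ways. Galnt12, Galnt4, Gcnt4 and St3gal4 (log2 fold change 0.60, FDR 0.117) were higher at 22 months. Lower were B4galnt2 (-0.41, FDR 0.0995), St3gal1 (-0.71, FDR 0.234) and Chst4 (-0.78, FDR 0.253). Galnt12, one of the transferases that attach the first N-acetylgalactosamine to serine and threonine, had 13.2 and 12.8 CPM in the young pools and 23.3 and 22.1 CPM in the old pools. Both old pools of Galnt12 were above both young ones by more than the spread within an age. Its log2 fold change was 0.80 (SE 0.17, FDR 0.0162 by edgeR), and 14 of 17 alternative fits called it, with FDR between 0.00139 and 0.211, the last with total counts. Without ISC_2mth replicate 1 or without ISC_2mth replicate 2 its FDR was 0.0545 and 0.0588, at log2 fold changes of 0.82 and 0.77. Galnt4 (log2 fold change 0.49, FDR 0.0793) and Gcnt4 (0.65, FDR 0.0958), singled out after their values were seen, were each called in 5 of 17 alternative fits.

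Genes of mucin folding and granule release were tested for 21 of 22 members, and none was called (median log2 fold change 0.042). The lowest p values in that list belonged to Pdia6, a disulfide isomerase (log2 fold change 0.28, FDR 0.322), Qsox1, a sulfhydryl oxidase (-0.33, FDR 0.322), and Creld2, an endoplasmic reticulum stress protein (-0.49, FDR 0.332). Of 14 other mucins and trefoil peptides, 6 passed the filter and none was called (median 0.096). Muc4, a membrane mucin, had 335 and 303 CPM in the young pools and 379 and 350 CPM in the old pools (log2 fold change 0.19, FDR 0.398). Muc3a, a membrane mucin of the brush border, gave a log2 fold change of -0.28 (FDR 0.318), and was called without ISC_22mth replicate 1 (-0.49, FDR 0.0324) and with total counts (-0.78, FDR 5.5e-04). Muc6, the gel-forming mucin of gastric glands, varied between pools of one age, with 4.06 and 1.13 CPM at 2 months and 7.25 and 0.900 CPM at 22 months. Like Reg4, Muc6 had its highest and its lowest value in the old pools, and it was called without ISC_22mth replicate 2 (log2 fold change 1.49, FDR 0.0032).

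Other goblet cell markers were tested for 20 of 21 genes. None was called, the median log2 fold change was 0.064, and the second young pool was above the first in 16 of 20 and the first old pool above the second in 19 of 20. The lowest p values were those of Rap1gap (log2 fold change -0.97, FDR 0.204), Klk1, a kallikrein (0.46, FDR 0.248), and Ramp1, a receptor activity-modifying protein (1.33, FDR 0.343). Their pools did not overlap between ages, as in 20.0% of that list beside 47.6% of all genes, although the closest pools of Klk1 were 20.5 CPM at either age. Without ISC_22mth replicate 1 the log2 fold change of Klk1 was 0.0052 (FDR 0.995), and without ISC_22mth replicate 2 it was 0.79 (FDR 6.7e-04). Summed over all 21 listed genes, these markers gave 235 and 307 CPM in the young pools and 329 and 237 CPM in the old pools, the same order as the members.

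Markers of other cell types were read in the same pools. The 14 Paneth cell markers summed to 1111 and 867 CPM in the young pools and 2474 and 993 CPM in the old pools. Old pool 1 stood apart, with all 14 above old pool 2 at a median fold of 2.21, and 1 of 14 was higher in the second young pool than in the first. Lyz1, a lysozyme, gave 749 and 203 CPM in the old pools (log2 fold change 0.83, FDR 0.199). Lyz1 was called in 6 of 17 alternative fits, among them no filter (FDR 2.9e-11), a replicate block (FDR 0.0013) and, in the other direction, the fit without ISC_22mth replicate 1 (-0.40, FDR 0.0414). Of the 14, 3 were called and all were higher, beside 1.63% of all genes. They were the defensins Defa30 (1.06, FDR 0.0130), Defa17 (1.11, FDR 0.0163) and Defa24 (0.87, FDR 0.0455). These belong to a family of near-identical copies and are uncertain as single genes. Without ISC_22mth replicate 1 the calls of Defa17 (FDR 0.118) and Defa24 (FDR 0.406) were lost, and DESeq2 called none of the 3. Defa24 was called in 10 of 17 alternative fits. It was not called with total counts (FDR 0.131), the upper quartile (0.0689), filterByExpr (0.0797), at least 10 counts in every pool (0.0628) or offsets for GC content and length (0.0804). ISC_22mth replicate 1, the high old pool of Muc2, Reg4, Spink4 and Retnlb, was thus also the high old pool of the Paneth markers. It was likewise the higher old pool for 19 of 20 other goblet, 11 of 12 enterocyte and 6 of 7 tuft markers, beside 5 of 13 stem cell markers. The part of Paneth RNA in the values of these members was not tested. In the young pools the mucus genes and the Paneth markers had opposite orders.

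The 15 listed enteroendocrine markers summed to 44.3 and 162 CPM in the young and 151 and 102 CPM in the old pools. Of the 11 tested, 1 was called and it was higher, beside 1.63% of all genes. This was Sst, the somatostatin gene (7, 7, 120 and 9 counts, FDR 0.0246). Its log2 fold change went from 3.36 to 0.63 without ISC_22mth replicate 1. Sst passed the filter only through that old pool, where it was high, so that its call is no support for the list. The call of Sst was lost with limma voom (FDR 0.265 with and 0.294 without quality weights) and with DESeq2 (FDR 0.370). Chgb, a granin (log2 fold change 0.22, FDR 0.822), and Gcg, the proglucagon gene (-0.042, FDR 0.946), were not called. Chgb was called with a replicate block (0.57, FDR 0.0084) and without ISC_2mth replicate 2 (1.82). Like the mucus genes, 10 of 11 were higher in the second young pool and 8 of 11 in the first old pool. The 12 enterocyte markers summed to 357 and 469 CPM in the young and 867 and 712 CPM in the old pools. They had the same order within each age, with 9 of 12 higher in the second young pool (median fold 1.47) and 11 of 12 in the first old pool (1.55). Of these 12, 4 rose, beside 1.63% of all genes, 8 had an unadjusted p under 0.05 and 7 (58.3%) did not overlap between ages, beside 16.9% and 47.6% of all genes. The called genes included Fabp1 (log2 fold change 2.35), Sis, the sucrase-isomaltase (1.37), and Fabp2 (0.93), while Anpep (0.41) had an FDR of 0.141, and 2.2e-04 without ISC_22mth replicate 2. DESeq2 did not call Fabp2 (FDR 0.218). Of 7 tested tuft markers of 14, 2 rose, beside 1.63% of all genes: Dclk1 (4, 4, 42 and 19 counts) and Ptgs1 (0, 0, 38 and 20 counts). Both passed the filter only through the old pools, where they were high, so that their count of 2 is no support for the list. Pou2f3 (-0.21, FDR 0.847) and Il17rb (-0.30, FDR 0.744) were not called. The call of Dclk1 was lost without ISC_2mth replicate 1 (FDR 0.0558) and without ISC_22mth replicate 1 (FDR 0.231), and with limma voom (FDR 0.0873 with and 0.103 without quality weights). Of 12 leukocyte markers, 3 were tested and 2 rose, beside 1.63% of all genes: Itgam (log2 fold change 0.78, FDR 0.0296) and Ccr2 (0, 0, 13 and 16 counts). Ccr2 passed the filter only through an old pool, where it was high, so that its call is no support for the list. Cd68 went the other way (-0.79, FDR 0.321). The defining markers Ptprc, Cd3g and Cd79a were at or near 0 in every pool. Itgam lost its call without ISC_2mth replicate 1 (FDR 0.306), and Ccr2 did so without either young pool (FDR 0.0810 and 0.0580) and without ISC_22mth replicate 2 (FDR 0.0939). Itgam was also not called with DESeq2 (FDR 0.0744) or total counts (FDR 0.249), and Ccr2 with limma voom (FDR 0.0738 with and 0.0851 without quality weights) or offsets (FDR 0.0538). No stem cell marker of 13 was called (median log2 fold change -0.16), with Olfm4 at -0.077 (FDR 0.756) and Slc12a2 at 0.25 (FDR 0.193). Of the 13, 7 had an unadjusted p under 0.05 and 76.9% did not overlap between ages, beside 16.9% and 47.6% of all genes. Those 7 went both ways. Ascl2 (log2 fold change 0.33), Slc12a2 (0.25) and Prom1 (0.27) were higher at 22 months. Lower were Axin2, Rnf43 (-0.41), Sox9 (-0.28) and Tnfrsf19 (-0.46). Axin2, a target of Wnt signalling that was singled out after its values were seen, had 148 and 128 CPM in the young pools and 102 and 98.5 CPM in the old pools. Its log2 fold change was -0.46 (SE 0.12) with an FDR of 0.0510, just over the threshold, and 13 of 17 alternative fits called it. The part of any of these cell types in the mucus values was not tested.

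**Figure D5:**
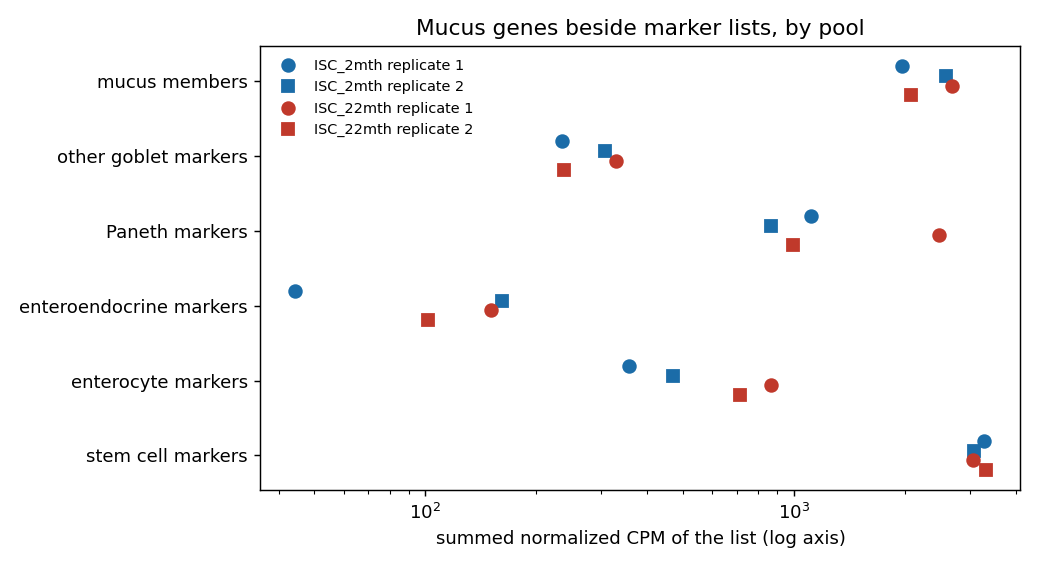
Summed normalized CPM (x axis, log scale) of the 10 mucus genes and of 5 lists of cell type markers (y axis) in each of the 4 pools. The mucus genes and the other goblet markers share the order of the pools, ISC_22mth replicate 1 stands apart for the Paneth markers, and the old pools lie above the young ones for the enterocyte markers.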

How the data were processed

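ISCs were sorted from mice of 2 ages, and amplified full-length cDNA (SPIA) was sequenced from 4 pools of 5 animals. The authors deposited raw counts per gene; per the labels, reads were trimmed with Trimmomatic 0.30, aligned with STAR 2.4.2a and counted with featureCounts, after FastQC. The strand setting of the counting is not given in the sources used here. Amplification can distort low counts, and the high mitochondrial share reduces the depth left for other genes. A gene entered the test if any pool had over 5 reads and over 1 CPM for it (13692 of 52459), and testing was done with edgeR 4.0.16 (R 4.3.3, TMM, quasi-likelihood, Benjamini-Hochberg). Alternatives used limma 3.58.1 (voom), DESeq2 1.42.0, other scalings, filters, offsets, a replicate block and single pools left out. The code was tested on simulated data. Replicates differed beyond sampling noise (chi-square per gene 9.42 and 7.11). Symbols, lengths and positions came from GENCODE vM21, promoters from RefSeq. The members and the gene lists were chosen with earlier results of these data known. Named beside the members were called genes of each list (at most 5), otherwise the 3 of lowest p, and for cell type lists the 2 of highest CPM and up to 3 called genes. Pools were assigned to ages by their sample titles.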

Additional observations from a re-analysis of the deposited data

How the results depend on the processing

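The count of genes called between ages was 309, and 197 with DESeq2, 611 with the likelihood ratio test, 4632 with total counts, 554 with no filter, 624 with a replicate block, 176 with offsets for GC content and length, and 147 (without ISC_2mth replicate 1) to 687 (without ISC_22mth replicate 2) with single pools left out. The labels do not say whether the replicate numbers pair the pools. Deviations from the age means of equally numbered pools had a correlation of -0.0059 over genes. With 2 pools per age this value cannot decide whether the pools were paired. The replicate block changed no call of a member but called Chgb (0.57) and Lyz1 (0.56). Members called were 0, except 6 with total counts (all lower, where the median of all genes moved by -0.49) and 0 to 2 with single pools left out. The log2 ratio of the summed members, 0.071, was -0.41 with total counts and -0.13 to 0.28 with single pools left out. With total counts the log2 fold change turned to -0.38 for Muc2 and for Tff3, -0.43 for Zg16, -0.48 for Agr2, -0.46 for Spdef, -0.041 for Reg4, -0.30 for Spink4, -0.21 for Pdia6, -0.30 for Muc4, -0.042 for Klk1, -0.23 for Chgb, -0.086 for Anpep and -0.24 for Slc12a2. With the upper quartile it was -0.032 for Agr2 and -0.017 for Spdef, with at least 10 counts in every pool -0.015 for Agr2, with offsets 0.22 for Fcgbp, -0.0097 for Zg16 and -0.14 for Agr2, and with voom 0.0015 and 0.0013 for Gcg. With single pools left out the ranges were -0.16 to 0.33 for Muc2, -0.16 to 0.40 for Tff3, -0.25 to 0.24 for Fcgbp, -0.21 to 0.15 for Clca1, -0.14 to 0.28 for Zg16, -0.23 to 0.28 for Agr2, -0.088 to 0.14 for Spdef, -4.01 to 6.08 for Retnlb, -0.62 to 1.06 for Reg4, -0.16 to 0.47 for Spink4, -0.51 to 1.82 for Chgb, -0.39 to 0.42 for Gcg, -0.40 to 1.48 for Lyz1, -1.51 to 1.86 for Muc6 and -0.19 to 0.027 for Olfm4. The cause of these changes was not tested. Depth limits Spdef and Retnlb most.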
